A study of Mus musculus with 3 samples.

Results

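The 10 keratin genes Krt4, Krt5, Krt7, Krt8, Krt13, Krt14, Krt15, Krt18, Krt19 and Krt20, those known from the layers of the bladder lining, were followed through 3 single-cell libraries of mouse cells. They were chosen by symbol from the 31053 mouse genes of the deposited tables, and each symbol matched 1 gene in all 3 libraries. Their level and their detection together in single cells were read in cells where Krt5, Krt7, Krt15, Ly6d and Wfdc2 together made at least 20 of 10,000 mouse UMIs, here called gate cells, and in all other cells. A UMI is a molecular tag that counts 1 captured transcript. Gate cells were 2725 of 6775 mouse cells in adult bladder (40.2%), 1473 of 8258 at 1 day (17.8%) and 2170 of 8172 at 7 days (26.6%). The first library was made from a pool of 8 wild-type C57BL/6 bladders taken at 8 to 9 weeks of age. The others came from bladder assembloids, constructs rebuilt in culture from bladder cells, pooled from 3 assembloids after 1 day and from 3 after 7 days, for which the labels give no strain or genotype. Each group had 1 library, so no test between groups was possible, and brackets below give exact 95% intervals that cover counting error only.

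Keratins are the intermediate filament proteins of epithelial cells. A filament forms only when a type I keratin pairs with a type II keratin, and the pairs in use change with the layer of an epithelium. In the bladder lining, the urothelium, Krt5 is known from basal cells that sit on the basement membrane, Krt14 from a subset of these, and Krt20 from the umbrella cells at the lumen. Krt8 and Krt18 are the classical pair of simple epithelium, Krt7 and Krt19 are widespread in simple and transitional epithelium, Krt15 is a type I keratin of basal cells, and Krt4 and Krt13 are the usual pair of moist stratified mucosa. Krt4, Krt5, Krt7 and Krt8 are type II keratins and the other 6 are type I.

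All 10 are protein-coding genes, and they lie in the keratin clusters of mouse chromosomes 11 and 15 (GENCODE vM21, build GRCm38, also called mm10). On chromosome 11, on the minus strand, are Krt20 (chr11:99428403-99438150), Krt13 (chr11:100117327-100121566), Krt15 (chr11:100131758-100135928), Krt19 (chr11:100140810-100148665) and Krt14 (chr11:100203162-100207548). Krt13 and Krt15 are 10.2 kb apart and Krt15 and Krt19 are 4.9 kb apart, with no annotated gene between them. On chromosome 15 are Krt7 (chr15:101411043-101430313) on the plus strand, Krt5 (chr15:101707070-101712898), Krt4 (chr15:101918535-101924735) and Krt8 (chr15:101996698-102004482) on the minus strand, and Krt18 (chr15:102028180-102032027) on the plus strand. Krt18 is the only type I gene among them, and it lies 23.7 kb from Krt8 with no gene between. Krt5, Krt7 and Krt8 each overlap 1 annotated gene on the opposite strand (Gm44323, Gm671 and Gm36026). The sources used here do not say whether counting used strand, so reads of these partners cannot be told apart from theirs.

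RefSeq (GRCm38.p6) listed a promoter for 7 of the 10 keratins. The sequence ATAAAAGG, a TATA-type box, was found by a search of both strands in the 250 bases upstream of a listed start of Krt5, Krt13 and Krt20, and in 1.54% of all 32851 listed promoters. These 3 are shown because their levels in gate cells followed 3 different courses, described below. Each sequence runs 5′ to 3′ over the 120 bases before the RefSeq start, and capitals mark ATAAAAGG and, in Krt20, the T before it, which completes TATAAA.
Krt5 (chr15:101712906-101713025, minus strand): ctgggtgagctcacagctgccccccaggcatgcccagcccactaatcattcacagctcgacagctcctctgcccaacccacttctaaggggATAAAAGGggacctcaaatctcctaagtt
Krt13 (chr11:100121567-100121686, minus strand): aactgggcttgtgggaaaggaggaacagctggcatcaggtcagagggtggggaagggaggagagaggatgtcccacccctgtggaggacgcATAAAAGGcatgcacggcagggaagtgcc
Krt20 (chr11:99438154-99438273, minus strand): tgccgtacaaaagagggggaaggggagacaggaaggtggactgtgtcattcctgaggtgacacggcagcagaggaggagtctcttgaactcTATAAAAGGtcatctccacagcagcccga
The box began 29 bases before the start in Krt5 and Krt13 and 28 bases before it in Krt20. Krt13 has another listed start, at position 100120577 of chromosome 11, and the box was not in the 250 bases before it. The letters of the box were chosen after these sequences had been seen. TATAAA itself was in Krt20 alone of the 7, and in 12.4% of all promoters. TGANTCA was in Krt13 alone (6.75% of all), GCCNNNGGC in Krt7 and Krt18 (13.7% of all) and GGGCGG in Krt7 (32.7% of all). AACCGGTT was in none of the 7 (0.116% of all). The listed start of Krt14, at position 100206030, lies inside the gene, whose 5′ end is at 100207548. The listed start of Krt8 is 140 bases from the nearest GENCODE start. Absence of a motif in these 2 genes holds only for the bases before those starts.

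The gate was set beside a gate without keratins. That gate, built from Epcam, Cdh1, Cldn7, Cldn4, Ly6d, Wfdc2 and Sfn, kept 2731, 1467 and 2172 cells in bladder, at 1 day and at 7 days. Of these, 2719, 1464 and 2160 were gate cells. Ly6d and Wfdc2 belong to both gates and were abundant in gate cells. The overlap is therefore largely built in and is no independent check. The score was far from the threshold in most cells, with a median of 143.3, 180.9 and 150.2 per 10,000 in gate cells. Only 59, 20 and 51 gate cells scored 20 to 40, and 46, 30 and 62 cells outside scored 10 to 20. Just inside the threshold Krt18 stood at 3296, 271 and 815 CPM (counts per 1e6, here mouse UMIs of a gene over all mouse UMIs of the set), and just outside it at 1811, 94.5 and 345 CPM. In bladder these sums came largely from few cells. The top 5% of cells held 69.4% of the Krt18 UMIs just inside and 83.4% just outside. The median bladder cell stood at 1242 CPM just inside and at 0 just outside, where 43.5% of cells held a Krt18 UMI. Gate cells had a median of 21176, 4849 and 8358.5 UMIs, and other cells of 4907.5, 17402 and 11676.5, so detection is compared after every cell was thinned to 2500 UMIs. Transcripts of other cell types also differed between the libraries within gate cells. The 5 fibroblast markers Col1a1, Col1a2, Dcn, Lum and Pdgfra summed to 50.2, 312 and 436 CPM, and the 5 smooth muscle markers Myh11, Actg2, Acta2, Cnn1 and Des to 22.5, 750 and 436 CPM. Their part in the keratin results was not tested. The libraries shared few barcodes: 21 between bladder and 1 day, 30 between bladder and 7 days and 114 between 1 and 7 days. Without cells of shared barcodes the counts of keratins in the 3 comparisons of whole libraries, and of pairs in the 3 whole libraries, were the same. This was not run for subsets of a library.

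By their nearest cells in a space built without keratin genes, 1495 of its gate cells were bladder-side, with at least 95% bladder cells among the 30 nearest, and 654 were assembloid-side, with at most 5%. The other 21 lay between. Values of the whole 7-day library are given first, and those of each side with the comparisons of that library. The split is made from expression, so closeness of each side to its neighbour library is partly built in.

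The summed keratin message hardly differed between the libraries, while its make-up did. The 10 keratins together made 11786 CPM of gate cells in bladder, 12108 CPM at 1 day and 11535 CPM at 7 days, a little over 1% of all mouse UMIs in each. Type II genes gave 39.3%, 34.9% and 38.5% of these UMIs. Since the 3′ assay counts molecules rather than fragments, no length scaling was applied, although capture may differ between genes. In bladder the order of levels was Krt18, Krt19, Krt8, Krt7, Krt15, Krt5, Krt20, Krt4, Krt13 and Krt14. At 1 day it was Krt15, Krt7, Krt18, Krt19, Krt8, Krt5, Krt4, Krt14, Krt13 and Krt20. The counting intervals of neighbours in each order did not overlap, but these orders use summed UMIs, in which deeper cells weigh more. With CPM averaged over cells some neighbours changed places. In bladder Krt4 (67.3) then stood above Krt20 (62.0), and Krt13 (2.75) above Krt14 (2.69). At 1 day Krt19 (1992) stood above Krt18 (1864).

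**Figure D1:**
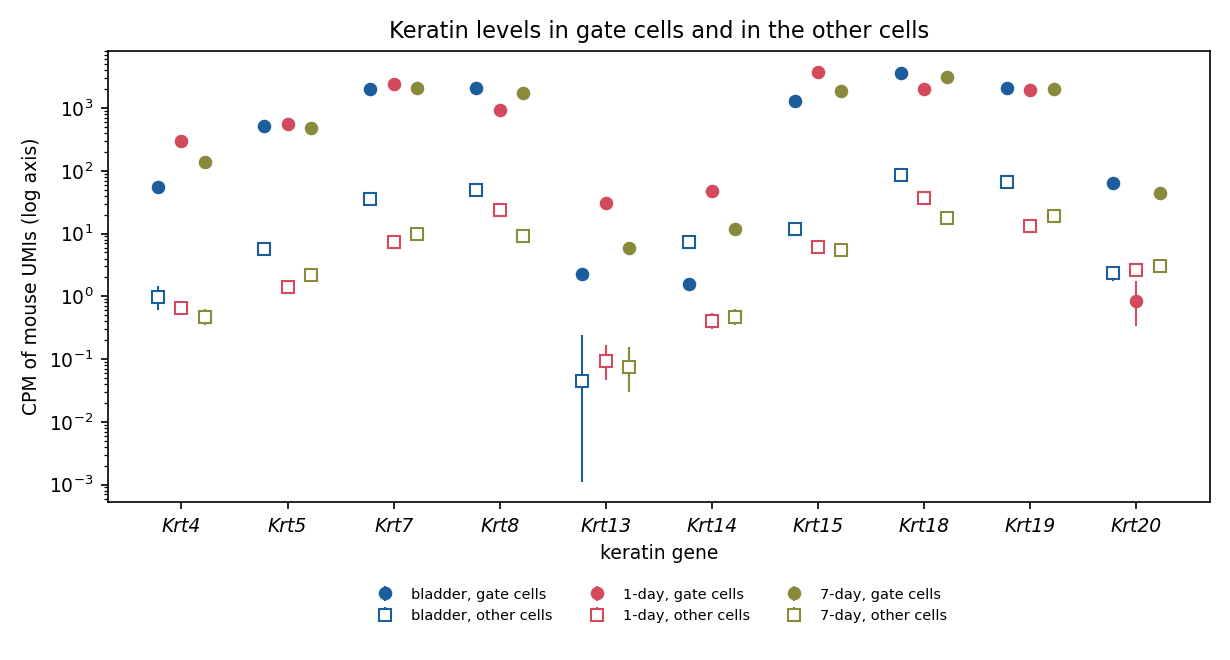
Level of each keratin in CPM of mouse UMIs (log axis) for gate cells (filled circles) and other cells (open squares) of the 3 libraries, with 1 library per group; bars are exact 95% counting intervals. Krt7, Krt19 and Krt5 sit level across the libraries, Krt4, Krt13, Krt14 and Krt15 are highest at 1 day, and Krt8, Krt18 and Krt20 are lowest there.

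How the keratins of gate cells differed between 1-day assembloids and adult bladder was read first. The label gives the age of the assembloid, not the whole time its cells had been in culture. Krt4, Krt13, Krt14 and Krt15 were at least 2-fold higher at 1 day, Krt8 and Krt20 were lower, and Krt5, Krt7, Krt18 and Krt19 differed by less than 2-fold. That is 4 of 10 keratins higher, against 11.2% of the 5807 genes with at least 20 CPM in either library, and 2 of 10 lower, against 7.03%. These counts take genes that differed 2-fold or more with a counting interval of the ratio that left out 1. The median log2 ratio was 0.20 over the 10 keratins and 0.24 over all genes compared.

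Krt15, the type I keratin of basal cells, was at 1297 CPM in bladder gate cells, 3820.1 CPM at 1 day and 1866 CPM at 7 days. It was highest at 1 day and lowest in bladder. The middle quartiles of single cells ran from 261 to 2418 CPM in bladder and from 1595 to 5708 CPM at 1 day, so the cells of both libraries overlapped. The log2 ratio of 1 day to bladder was 1.56 [1.54 to 1.58]. Krt15 is a gate gene, and with a gate that left it out the ratio was 1.57. After thinning, 73.3% of gate cells held a Krt15 UMI in bladder, 93.8% at 1 day and 78.6% at 7 days, against 3.22%, 1.39% and 1.47% of the other cells at the same depth. The gate uses Krt15, so this gap to the other cells is partly built in.

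The pair of moist mucosa was higher at 1 day as well, at different levels. Krt4 was at 56.2 CPM in bladder, 299.6 CPM at 1 day and 139.9 CPM at 7 days, and the log2 ratio of 1 day to bladder was 2.42 [2.34 to 2.49]. A Krt4 UMI was present in 10.9%, 38.0% and 19.7% of thinned gate cells and in at most 0.26% of thinned other cells. Krt13, its usual partner, was much rarer, at 2.28, 30.9 and 5.79 CPM, with a log2 ratio of 3.76 [3.46 to 4.06] for 1 day against bladder. Only 0.62%, 5.47% and 1.45% of thinned gate cells held a Krt13 UMI, so at this depth most cells with Krt4 had no Krt13 to be seen.

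Krt14 had the highest ratio of the 10 and was found in few cells, 21 in bladder, 37 at 1 day and 34 at 7 days. It was at 1.58 CPM in bladder (101 UMIs), 47.0 CPM at 1 day (388 UMIs) and 11.9 CPM at 7 days (248 UMIs), and the log2 ratio of 1 day to bladder was 4.89 [4.58 to 5.23]. These UMIs were not spread over the epithelium. At 1 day 13 gate cells with at least 5 Krt14 UMIs each held 91.2% of them, and a single cell held 164. In bladder 8 such cells held 74.3%, and at 7 days 12 such cells held 87.5%. In thinned gate cells Krt14 was present in 0.345%, 1.96% and 0.945%, and in thinned other cells in 0.47%, 0.08% and 0.16%, so the bladder share lay below that of cells outside the gate. The interval around the Krt14 ratio treats each UMI as independent and does not cover so few cells. Averaging CPM over cells rather than summing UMIs gave a log2 ratio of 3.59.

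Krt5, by contrast, stayed level. It was at 518 CPM in bladder, 556 CPM at 1 day and 486 CPM at 7 days, with a log2 ratio of 0.10 [0.06 to 0.15] for 1 day against bladder. A Krt5 UMI was present in 68.9%, 58.4% and 63.6% of thinned gate cells. The basal genes known to accompany Krt5 did differ: of 10 measured genes of the basal list, 7 were higher at 1 day, against 11.2% of all genes, and 0 lower, against 7.03%, with a median log2 ratio of 1.17 against 0.24. Fibroblast and smooth muscle markers were higher in the same cells, as given above, and integrins such as Itgb1 and Itga3 are also made by those cell types. Their part in the count was not tested. Col17a1, the transmembrane collagen of hemidesmosomes, was at 41.6 against 0.921 CPM, and Itgb4, the integrin that anchors keratins there, at 84.1 against 29.0 CPM.

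Krt8 and Krt18 were lower at 1 day. Krt8 was at 2076 CPM in bladder, 943 CPM at 1 day and 1752 CPM at 7 days, and its log2 ratio of 1 day to bladder was -1.14 [-1.17 to -1.11]. Krt18 was the most abundant keratin of bladder gate cells, at 3664 CPM, and was at 2036 CPM at 1 day and 3158 CPM at 7 days. Its ratio of -0.85 [-0.87 to -0.83] did not reach 2-fold, but was -1.03 with doublet calls kept and -1.09 without the cells high in Ndufa4l2 and Fxyd4 described below, which makes it lower under the same rule. In thinned gate cells Krt8 was present in 96.0%, 73.8% and 88.9%, and Krt18 in 99.5%, 92.6% and 97.1%. The middle quartiles of Krt8 ran from 1230.1 to 2493 CPM in bladder and from 253 to 1177 CPM at 1 day, so most 1-day cells lay below most bladder cells.

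Krt20, the umbrella cell keratin, was all but absent from 1-day gate cells. It gave 4037 UMIs (63.0 CPM) in bladder, 7 UMIs (0.847 CPM [0.34 to 1.75]) at 1 day and 922 UMIs (44.2 CPM) at 7 days, and the log2 ratio of 1 day to bladder was -6.12 [-7.53 to -5.17]. A Krt20 UMI was present in 11.9%, 0.087% and 8.39% of thinned gate cells. In the other cells the share was 0.25%, 0.61% and 0.59%, so the 1-day gate share lay below that of cells outside the gate and is not read as expression. In bladder 274 gate cells with at least 5 Krt20 UMIs held Krt15 at 721 CPM, against 1721 CPM in the 1469 gate cells with none. Krt5 was at 397 against 579 CPM, and Krt8 at 2317 against 1999 CPM in the same sets. The cells with Krt20 were deeper (a median of 30870.0 against 18496 UMIs), and no gate cell at 1 day held 5 Krt20 UMIs. The 46 bladder cells just outside the gate held Krt20 at 126 CPM as a set. This value rests on 37 UMIs in 3 cells, with up to 19 in a cell, so a few cells with Krt20 lie outside the gate.

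Krt7 and Krt19 were the steady keratins. Krt7, a type II gate gene, was at 1986, 2431 and 2067 CPM, and Krt19, the short type I keratin, at 2122, 1944 and 2005 CPM in bladder, at 1 day and at 7 days. Their log2 ratios of 1 day to bladder were 0.29 [0.27 to 0.31] and -0.13 [-0.15 to -0.10]. With a gate that left Krt7 out its ratio was 0.30. Both were present in over 95% of thinned gate cells of every library.

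The keratin with the most UMIs in a cell differed between the libraries. In thinned gate cells Krt18 had the most UMIs of the 10 keratins in 53.9% of bladder cells and in 11.9% of 1-day cells. Krt15 led in 15.3% of bladder cells and in 54.7% of 1-day cells. Krt7 led in 8.29% and 19.1%, Krt8 in 8.98% and 0.98%, and Krt19 in 13.0% and 12.5%. Krt15 alone outnumbered Krt8 and Krt18 together in 9.89% of bladder cells, 60.1% of 1-day cells and 23.7% of 7-day cells. At 7 days this share was 59.8% in assembloid-side cells and 7.78% in bladder-side cells.

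**Figure D2:**
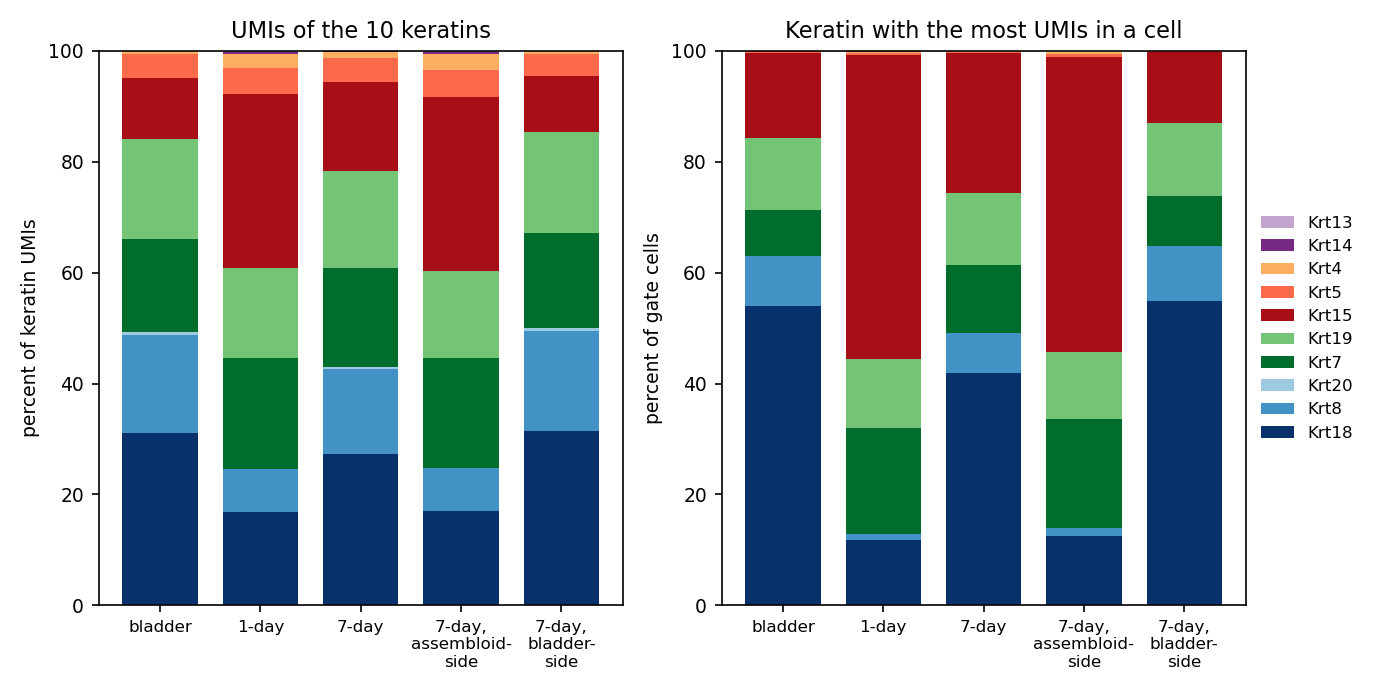
Left, share of each keratin in the UMIs of the 10 keratins, in percent; right, percent of gate cells thinned to 2500 UMIs in which each keratin had the most UMIs, ties shared. Bars are the 3 libraries and both sides of the 7-day library; Krt18 makes 31.1% of keratin UMIs in bladder and 16.8% at 1 day, and the 7-day assembloid-side and bladder-side bars look like the 1-day and the bladder bars.

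Other genes of the filament system were read from lists. Of 43 further keratins listed, 3 reached 20 CPM. Krt23 was at 333 CPM in bladder, against 67.3 CPM at 1 day, Krt10, a keratin of the upper skin layers, at 30.1 and 12.6 CPM, and Krt6a, a keratin of activated epidermis, at 14.8 and 49.6 CPM. Of 9 measured desmosome and plakin genes, which tie keratin filaments to cell junctions, 1 was higher (Plec, at 154 against 74.6 CPM) and 0 lower, with a median log2 ratio of -0.08. That share of higher genes is near the 11.2% of all genes. Of the other intermediate filaments, Vim was at 247 CPM at 1 day and 19.0 CPM in bladder, beside the higher fibroblast and smooth muscle markers given above, and Lmna at 176 and 264 CPM. Of the 5 uroplakins, the plaque proteins of the luminal surface, 4 were lower, against 7.03% of all genes, and 1 higher, against 11.2%, with Upk3a at 189 against 5086 CPM.

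Whether the keratins differed between the ages of assembloids was read from the 7-day and the 1-day library. The 1-day library also serves the comparison with bladder, so both share its cells. In the whole 7-day library 1 of 10 keratins was higher (Krt20, log2 ratio 5.60 [4.65 to 7.02]), against 4.19% of 5709 genes, and 4 were lower, against 3.36%. The lower ones were Krt13 at -2.41, Krt14 at -1.98, Krt4 at -1.10 and Krt15 at -1.03. Krt8 and Krt18 were at 0.89 and 0.63, below 2-fold. The median was -0.21 over the keratins and -0.19 over all genes compared.

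Within the assembloid-side cells none of this was seen. There 0 of 9 measured keratins were higher, against 1.43% of 5665 genes, and 0 were lower, against 0.0%. Krt4 was at 327 CPM, Krt15 at 3496 CPM, Krt8 at 863 CPM and Krt18 at 1900.5 CPM, with log2 ratios to 1 day from -0.13 to 0.13. In bladder-side cells the same 4 were at 62.2, 1197, 2116 and 3678 CPM. Krt14 was at 39.1 CPM in assembloid-side and 0.816 CPM in bladder-side cells, whereas Krt5 (544 and 464 CPM) and Krt7 (2199 and 2012 CPM) were close. Krt13 was at 16.8 CPM, a ratio of -0.87 [-1.23 to -0.54]. Krt20 gave 12 UMIs in these 654 cells and 900 UMIs (61.2 CPM) in the 1495 bladder-side cells. The Krt20 of 7-day gate cells thus lay almost wholly in bladder-side cells, and another 280 Krt20 UMIs of that library lay outside the gate.

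The 7-day library was also read against bladder, and shares each library with the comparisons above. Of the 8 keratins with at least 20 CPM in either library, Krt4 was higher (1.32 [1.25 to 1.39]), against 2.12% of 5143 genes, and 0 were lower, against 0.0%. The median log2 ratio was -0.09 over the 8 keratins and 0.03 over all genes compared. In bladder-side cells 0 of 8 keratins were higher, against 0.287% of 4876 genes, and 0 were lower, against 0.0205%. Their ratios to bladder ran from -0.16 for Krt5 to 0.15 for Krt4. In assembloid-side cells Krt4, Krt14 and Krt15 were higher (2.54, 4.63 and 1.43), against 12.1% of 5884 genes, and Krt8 and Krt20 were lower (-1.27 and -4.92), against 6.53%. In the same contrast the fibroblast markers summed to 1131 against 50.2 CPM and the smooth muscle markers to 1128 against 22.5 CPM, and their part was not tested.

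Pairs of keratins were then read in single cells, from the odds that both were detected in the same thinned cell. A pair was used where each gene was present in 2% to 98% of cells, and was called together or apart at a log2 odds ratio of at least 1 or at most -1. The cells of a library share its pool, its handling and its free RNA, so these values are descriptions. In bladder, over 2679 cells, 6 of 21 pairs were together and 0 apart. At 1 day, over 1374 cells, 8 of 21 were together and 0 apart. A gate cell had a median of 6 of the 10 keratins in each library, and a cell outside the gate a median of 0. Krt5, Krt7 and Krt15 are gate genes, so part of this gap is built in, and no count without them was made.

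Krt4 and Krt15 were together in all libraries, with log2 odds ratios of 1.77 in bladder, 2.23 at 1 day and 2.29 at 7 days. The 7-day value is that of the whole library, whose sides differ in the level of both genes. In bladder 13.3% of cells with Krt15 held Krt4, against 4.29% of cells without it. At 1 day the shares were 39.8% and 12.1%. Krt5 and Krt15 were together at 1.05 in bladder and at 3.11 at 1 day, where 61.2% of cells with Krt15 and 15.1% of cells without it held Krt5. Each gene of this pair belongs to the gate, which takes in a cell with much of either.

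Krt4 and Krt13, partners in moist mucosa, were not called together at 1 day (0.32 over 1374 cells), where Krt13 was found with Krt5 instead (1.42). Krt5 and Krt14, partners in the basal cells of skin, were rarely both frequent enough to be read. The log2 odds ratio was 3.45 over the 631 assembloid-side cells and 0.79 over the 550 1-day gate cells low in Ndufa4l2 and Fxyd4, a set described below. An average of 0.8 and 3.5 cells held Krt14 without Krt5 in a thinning, so both values rest on very few cells. In assembloid-side cells Krt14 lay apart from Krt8 (-2.33), Krt18 (-2.04) and Krt7 (-1.52).

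Krt8 and Krt18 were together at 1 day at 1.91, with Pearson's r of 0.50 over 1374 cells for log2(UMIs + 1). At 1 day 76.0% of cells with Krt18 held Krt8, against 45.8% of cells without it. In bladder nearly all cells held Krt18, so the pair was not used, and r was 0.38 over 2679 cells. Krt20 and Krt15 leaned apart in bladder, at -0.99, and Krt20 and Krt4 at -0.81. In the whole 7-day library 5 of 28 pairs were apart, among them Krt4 and Krt8 at -1.55 and Krt8 and Krt15 at -1.29. Within assembloid-side cells these were -0.53 and -0.01, so those pairs were apart mostly across the sides.

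**Figure D3:**
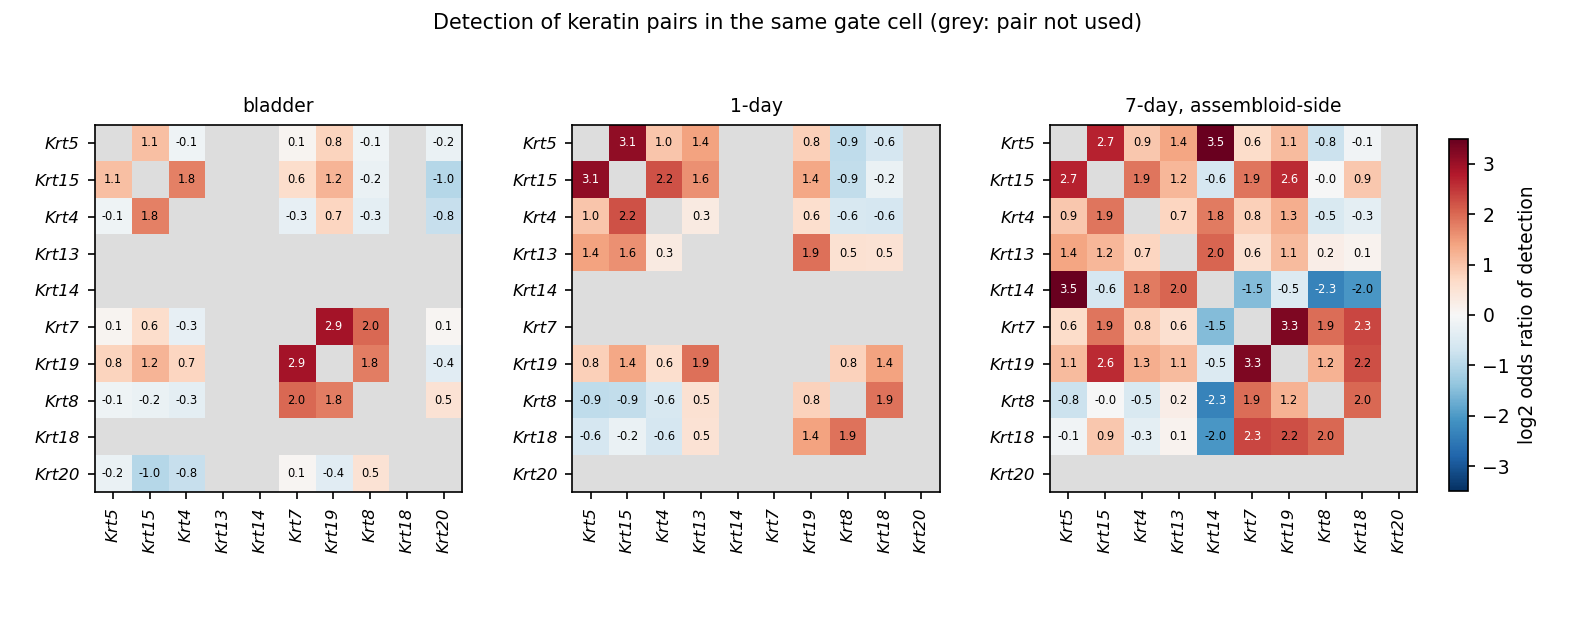
Log2 odds ratio that both keratins of a pair are detected in the same gate cell thinned to 2500 UMIs, as the mean of 20 thinnings, in bladder, at 1 day and in 7-day assembloid-side cells; grey fields are pairs not used because a gene was outside 2% to 98% of cells. Krt15 is paired with both Krt5 and Krt4 in all 3 panels, most of all with Krt5 at 1 day (3.11), and Krt8 and Krt18 are paired at the lower right where both could be read.

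Keratins also varied with the uroplakin level of a cell, which the gate did not use. Gate cells of each library were ranked by their thinned UMIs of Upk1a, Upk1b, Upk2, Upk3a and Upk3bl and split into 3 sets of equal size. At 1 day Krt8 was at 456, 700 and 1407 CPM from the lowest to the highest set, Krt18 at 1044, 1595 and 3028 CPM, and Krt7 at 1741, 2322 and 3199 CPM. Krt5 ran the other way, at 683, 589 and 443 CPM. In bladder Krt15 was at 2218, 1520 and 910 CPM and Krt4 at 87.8, 77.0 and 34.5 CPM, while Krt18 was at 2884, 3716 and 3917 CPM. Krt20 was also higher in the sets of bladder cells with more uroplakin, at 53.8, 61.4 and 75.7 CPM, from 120, 137 and 169 UMIs. The median uroplakin count of a thinned cell in the 3 sets was 13, 22 and 34 in bladder and 0, 3 and 8 at 1 day, where ties in the lowest set were broken at random.

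**Figure D4:**
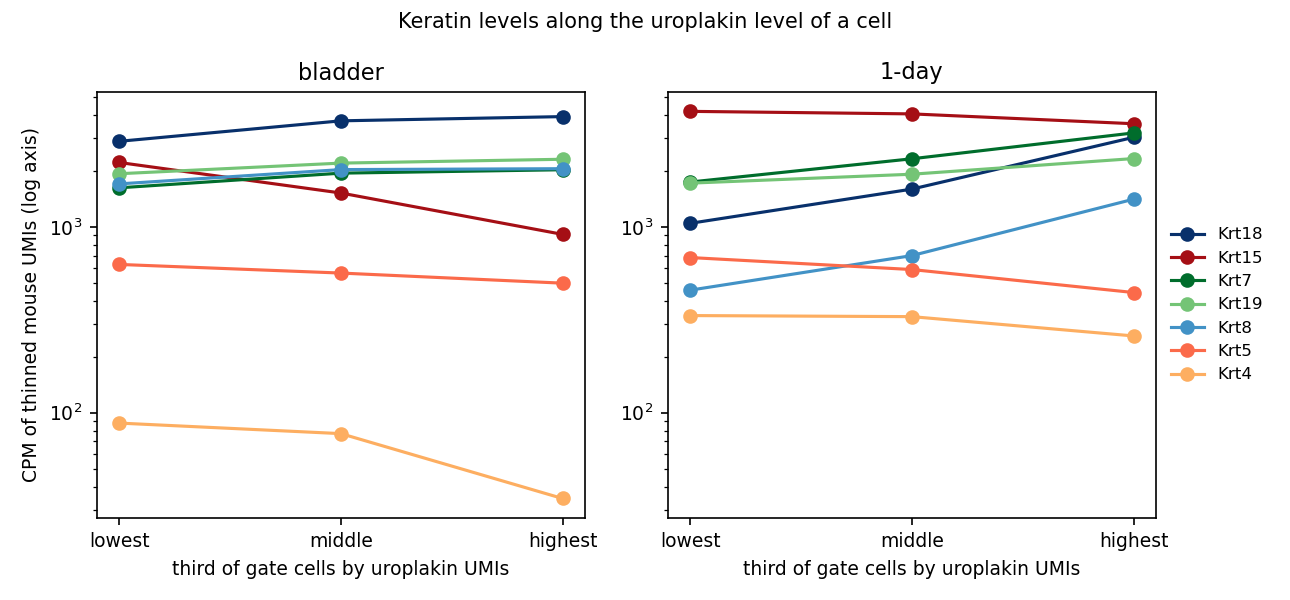
Level of 7 keratins in CPM of thinned mouse UMIs (log axis) in 3 sets of gate cells of equal size ranked by uroplakin UMIs, in bladder (893 cells a set) and at 1 day (458 cells a set). Krt8 and Krt18 are higher in sets with more uroplakin at 1 day, and Krt15 and Krt4 are lower in them in bladder.

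The genes most like each keratin over single cells fell along the same lines. With log2(thinned UMIs + 1) over 1374 cells at 1 day, Upk1a was the gene closest to Krt18 (r = 0.56), Krt8 (r = 0.51) and Krt7 (r = 0.45) among 2780 genes, followed by Psca and Ctsh for each. In bladder, over 2679 cells and 2585 genes, Krt8 was closest to Sprr1a (r = 0.34), a cornified envelope gene, then Cldn4 and Sfn. Krt18 was closest to S100a6 and Upk3a (r = 0.36 each), Krt15 to Igfbp2 (r = 0.36), Krt19 to Gsta4 (r = 0.31) and Krt7 to S100a6 (r = 0.30). For Krt4 and Krt5 no gene reached r = 0.3 in either library, and for Krt20 none did in bladder. Krt20 was not read at 1 day, where under 10% of thinned gate cells held it.

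At 1 day 892 of the 1473 gate cells (60.6%) were high in Ndufa4l2 and Fxyd4, with at least 5 of 10,000 UMIs from these genes, against 1 cell in bladder. Krt14 was lower in these cells than in the rest of the 1-day gate cells, at 13.6 against 90.9 CPM, the only 1 of 9 measured keratins to differ by 2-fold (1.94% of 5765 genes were lower and 1.09% higher). Krt14 gave 64 UMIs in the high cells and 324 in the others, where a single cell held 164 of them. The ratio without that cell was not computed. Krt15 was at 3058 against 4824 CPM and Krt5 at 445 against 703 CPM, and Krt7 and Krt18 were at 2725 against 2043 and at 2273 against 1724 CPM. Krt15 led 41.2% of the high cells and 74.9% of the others. Markers of other cell types differed along with this split. At 1 day the fibroblast markers summed to 191 CPM in the high cells and 472 CPM in the others, and the smooth muscle markers to 459 and 1133 CPM, and their part in the result was not tested. In the whole 7-day library the same contrast gave 2 of 9 keratins higher (Krt4 and Krt14), against 6.83% of 5682 genes, and 1 lower (Krt20), against 5.03%. Within its assembloid-side cells 0 of 9 were higher, against 1.65% of 5992 genes, and 1 was lower (Krt14), against 6.16%. There the fibroblast markers summed to 291 against 2036 CPM and the smooth muscle markers to 278 against 2044 CPM.

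Outside the gate keratin UMIs were few in most cells. All 10 together made 263, 91.3 and 67.3 CPM of other cells, and 69.2%, 89.8% and 86.9% of the thinned ones held none. Krt5, Krt7 and Krt15 are gate genes, so these low values are partly built in. Among the marker sets, the highest Krt8 and Krt18 levels were in cells with the mesothelial markers Msln, Upk3b and Lrrn4 (55, 29 and 36 cells). Mesothelium is the serosal lining, which also uses simple keratins. Upk3b is not particular to it here, at 231, 180 and 209 CPM in gate cells of bladder, 1 day and 7 days. The same mesothelial cutoff was passed by 6.13%, 10.9% and 8.66% of gate cells. Whether urothelial cells that missed the gate were among the mesothelial-marked cells was not tested. The mesothelial-marked sets did not hold all keratin-rich cells outside the gate. At 1 day 125 cells outside the gate with at least 10 Krt18 UMIs held 3387 of the 4325 Krt18 UMIs there, against 536 in the 29 mesothelial-marked cells, and the sets may share cells. The 125 cells were rich in the same markers, with Msln at 104, Upk3b at 80.2 and Lrrn4 at 53.6 CPM. The rest of the cells outside the gate held these at 1.18, 1.60 and 0.543 CPM. In bladder the mesothelial-marked cells held Krt19 at 1380.4 CPM, Krt8 at 632 CPM, Krt7 at 519 CPM, Krt18 at 483 CPM and Krt14 at 247 CPM, and Krt5 and Krt15 at 6.11 and 15.3 CPM. At 1 day they held Krt18 at 1058 CPM and Krt8 at 754 CPM but Krt19 at only 13.8 CPM, near its 12.3 CPM in fibroblast-marked cells. Immune-marked cells, which should lack keratins, held Krt18 at 36.8, 5.54 and 15.2 CPM.

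**Figure D5:**
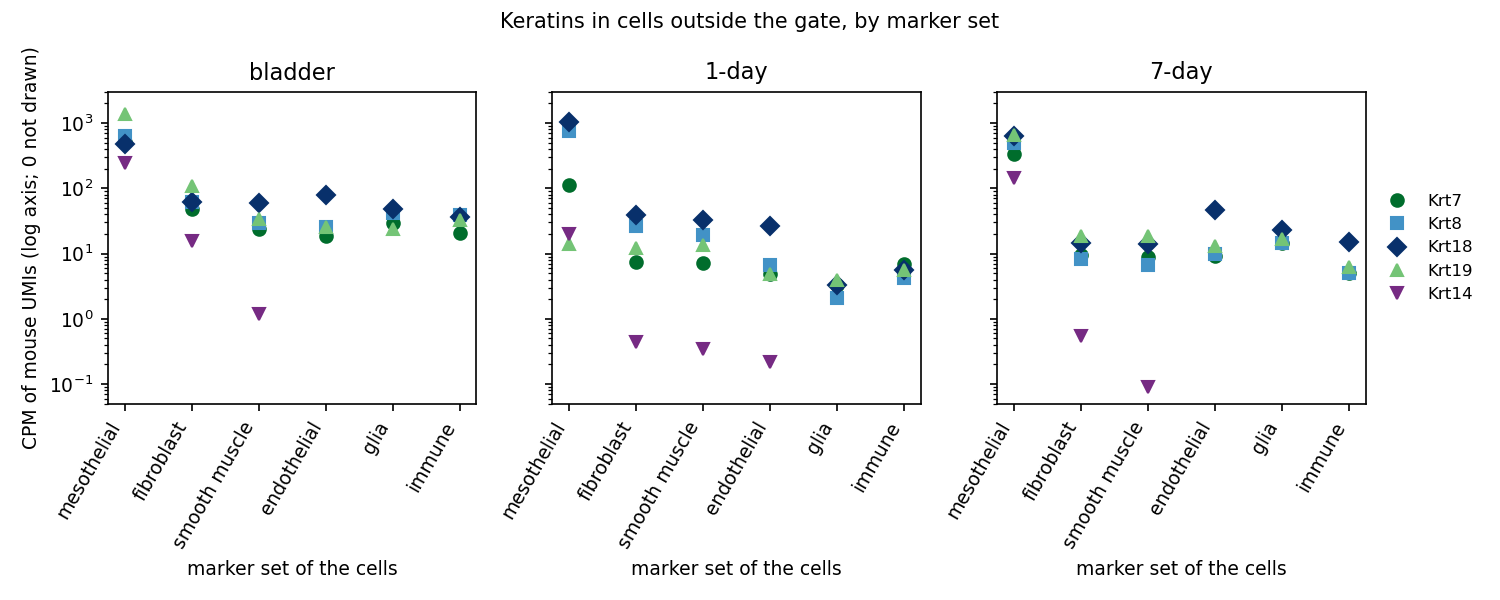
Level of 5 keratins in CPM of mouse UMIs (log axis, levels of 0 not drawn) in cells outside the gate, grouped by marker sets that may share cells, in the 3 libraries. Mesothelial-marked cells stand above all other sets for Krt8 and Krt18 in every library, and Krt19 is high in them in bladder and at 7 days but not at 1 day.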

How the data were processed

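Single cells of mouse bladder and of bladder assembloids were profiled with the 10x Chromium Single Cell 3′ v3 kit. The authors deposited raw UMI counts per gene and cell barcode, made with Cell Ranger (3.1.0 per the file headers) on a combined human and mouse reference. The submitters' processing notes name GRCh38, mm10 and hg38. The 3 libraries held 8642, 9039 and 9548 barcodes and 93560608, 135955678 and 120301672 UMIs.

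Kept cells had at least 90% mouse UMIs, at least 500 genes and under 20% mitochondrial UMIs. Simulated-doublet scoring (Scrublet in scanpy 1.11.5) removed 238, 280 and 202 cells, leaving 6775, 8258 and 8172 with medians of 7543, 14937.5 and 9399 UMIs. UMIs of gate cells were summed, and a gene was compared where either library reached 20 CPM. Ratios have exact 95% intervals, which cover counting error only. Detection, pairs and leading keratins are means of 20 thinnings to 2500 UMIs, because pair counts differed between single draws. 46, 99 and 79 gate cells were shallower and were left out there. The steps were tested on simulated data (pandas 2.3.3, scipy 1.17.1, numpy 2.4.6 and Python 3.11.15).

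All 10 keratins were named. For each keratin present in at least 10% of thinned gate cells, up to 3 genes with r of at least 0.3 were named. Up to 4 genes per list with the largest ratios were named. The members and lists were chosen with earlier results of these data known. The sets with at least 5 UMIs of a keratin or at least 10 Krt18 UMIs, the leading keratins and the motif ATAAAAGG were chosen after seeing the data. Alternatives were other gates, doublet calls kept, at least 1000 genes, no shared barcodes, assembloid-side cells, no Ndufa4l2 and Fxyd4 high cells, per-cell means, a minimum of 5 CPM, and thinning to 1000 or 5000 UMIs.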

Additional observations from a re-analysis of the deposited data

Results flagged for a closer look

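Krt14 went in opposite directions in the 1-day and 7-day libraries when gate cells high in Ndufa4l2 and Fxyd4 were set against the other gate cells. At 1 day it was lower in the high cells, with 64 against 324 UMIs and a log2 ratio of -2.73. At 7 days it was higher in them, at 21.5 against 10.2 CPM and a log2 ratio of 1.09. Within the assembloid-side cells of the 7-day library it was lower in the high cells, at 21.8 against 57.7 CPM and a log2 ratio of -1.40. In that contrast the fibroblast markers summed to 291 against 2036 CPM and the smooth muscle markers to 278 against 2044 CPM, and at 1 day to 191 against 472 CPM and 459 against 1133 CPM. Their part in the result was not tested, nor was the difference between the libraries. At 1 day a single cell held 164 of the 324 Krt14 UMIs of the cells not high in Ndufa4l2 and Fxyd4, and the ratio without it was not computed.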

How the results depend on the processing

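Of 120 counts of keratins or pairs recomputed under the alternatives, 95 stayed within 1.5 times the reported count, and none moved without cells of shared barcodes. The assembloid-side setting changes only the 7-day library. Its values for bladder and 1 day stayed the same by construction, here and among the log2 ratios below. At 1 day against bladder 4 keratins were higher under all alternatives run, and 2 were lower except with doublet calls kept and without Ndufa4l2 and Fxyd4 high cells, where Krt18 made 3. In assembloid-side cells 0 keratins were higher and 0 lower at 7 days against 1 day, 3 were higher and 2 lower than in bladder, 18 pairs were together and 3 apart, and the log2 ratio of Krt4 at 7 days against 1 day turned from -1.10 to 0.13. The lower keratins at 7 days against 1 day numbered 2 with doublet calls kept and 2 with per-cell means, and the higher ones 2 without Ndufa4l2 and Fxyd4 high cells. A minimum of 5 CPM gave 3 keratins higher at 7 days than in bladder. Pair counts were less stable. Pairs together at 1 day numbered 18 with a gate of 10 per 10,000, 16 with doublet calls kept, and 15 (with 4 apart) without Ndufa4l2 and Fxyd4 high cells. A gate of 40 gave 3 pairs together in bladder, 2 apart at 1 day and 6 together at 7 days, and the keratin-free gate 1 apart in bladder. Thinning to 1000 UMIs gave 2, 5 and 4 pairs together in bladder, at 1 day and at 7 days. Thinning to 5000 gave 2 together and 1 apart in bladder, 4 apart at 1 day and 6 together at 7 days. The cause was not tested. Of 279 log2 ratios 165 stayed within the counting interval of the reported value, 113 left it and 1 reversed. No paired analysis was possible because each group had 1 library. Krt13, Krt14 and, at 1 day, Krt20 rest on few UMIs, and with 1 library per group the spread between animals or assembloids is not known.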

Other observations

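Krt20 UMIs at 1 day were more frequent outside the gate than inside it. The other cells held 314 Krt20 UMIs in 238 cells (2.64 CPM), against 0.847 CPM in gate cells. They were present in 4.27% of smooth muscle-marked and 3.61% of fibroblast-marked cells, sets that may share cells and had median depths of 19258 and 18849 UMIs. At 7 days other cells held 280 Krt20 UMIs in 194 cells (3.01 CPM). In bladder they held 54 UMIs in 20 cells, of which 2 cells held 36 UMIs and 18 cells held 1 each. Summed over those 20 cells, Upk1a was at 2805 CPM, Upk1b at 2316 CPM and Upk3a at 902 CPM, with Krt15 at 31.7 CPM and Krt5 at 4.53 CPM. These sums do not describe each cell. Bladder cells just outside the gate held Krt20 at 126 CPM as a set, against 63.0 CPM in gate cells. That value rests on 37 UMIs in 3 of 46 cells, so the gate left out a few cells rich in Krt20.

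Cells outside the gate with at least 10 Krt18 UMIs numbered 20 in bladder, 125 at 1 day and 21 at 7 days. In the 125 cells Krt18 was at 1099.5 CPM and Krt8 at 748 CPM, while Krt7 was at 29.2 CPM and Krt19 at 18.5 CPM. The genes that led these cells included Slpi, Msln, Upk1b, Clu and Des. The 21 cells at 7 days were led by other genes, among them the uroplakins Upk1b, Upk3a and Upk1a with Psca and Ly6d, and Msln was present in 14.3% of them. The 20 bladder cells were led by Psca, Upk1b, Sprr1a and Msln, present in 25%, 75%, 50% and 60% of them. Summed over these bladder cells Krt19 was at 805 CPM and Krt14 at 197 CPM beside Krt18 at 1531 CPM. A Krt19 UMI was present in 75% of them and a Krt14 UMI in 50%, so the sums do not describe each cell.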
